A study of Mus musculus with 20 samples.

Results

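The genes described here are 10 members of the NF-kB system, fixed by name out of 25246 genes in the tables: the transcription factor genes Nfkb1, Nfkb2, Rel, Rela and Relb, and the genes Nfkbia, Nfkbid, Tnfaip3, Traf1 and Birc3, which encode inhibitors and signaling proteins around these factors. All 10 had transcripts in every genotype. They were followed in thymic intraepithelial lymphocyte precursors (IELPs), the agonist-selected thymocytes that give rise to T cells of the intestinal epithelium. In this pathway, IkB proteins such as the product of Nfkbia hold dimers of RelA or c-Rel with p50, the product of Nfkb1, in the cytoplasm until signals from the T cell receptor or from TNF receptor family members activate the IkB kinase. The non-canonical branch processes p100, the product of Nfkb2, so that p52 pairs with RelB. Several target genes of the factors, Nfkbia and Tnfaip3 among them, encode brakes on the pathway, and in the thymus NF-kB activity is known for its part in the survival and selection of thymocytes that meet strong self-ligands.

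Single CD4-CD8-TCRb+ thymocytes had been sorted into 96 wells per library and profiled by CEL-Seq2, a protocol that tags the 3' end of each mRNA molecule with a unique molecular identifier (UMI). The sort gates used CD122, the IL-2 receptor beta chain, and ZsGreen from the TBGR allele, a reporter of the T-bet gene Tbx21. They gave 4 populations: CD122-T-bet- (CD122- below), CD122+T-bet-, and the CD122+ cells with intermediate or high reporter, called T-bet int and T-bet high. The GEO record and the methods of the study state the NK1.1 gate in opposite ways, so it is not used to define the cells.

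The 20 libraries came from mice of C57BL/6 background and are taken here as 3 mice, 1 for each genotype. The study's captions speak of a mouse in places, while its text and methods speak of mice. The TBGR mouse was labelled wild type, was 4 weeks old and gave 8 libraries. The TBGR C-mycfl/fl mouse, 2 weeks old, carried floxed C-myc alleles and gave 8 libraries. The TBGR C-mycD/DCd4 mouse, 2 weeks old, had C-myc deleted by Cre under Cd4 regulatory sequences, which act from the double positive stage on, and gave 4 libraries with T-bet- cells alone. All 3 mice carried the reporter allele. Because no second mouse of a genotype could be told apart, no test between groups was possible. Genotype, mouse, age and sequencing library cannot be told apart for TBGR against the others. Between the TBGR C-mycfl/fl and TBGR C-mycD/DCd4 mice, both 2 weeks old, genotype, mouse and sequencing library cannot be told apart either. In the TBGR and TBGR C-mycD/DCd4 mice each library held 1 sorted population. In the TBGR C-mycfl/fl mouse each library held 48 wells each of a pair of populations, so CD122+T-bet- could be set against CD122- and T-bet high against T-bet int within libraries.

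Of 1920 wells with a cell, 1413 had at least 2000 transcripts and were used, in 10 groups of genotype and population of 112 to 186 cells. Library medians ran from 3298 to 7809.5 transcripts per cell, and a group held between 699596 and 1468961 transcripts. Il2rb, which encodes CD122, stayed at or below 19.4 CPM (transcripts per 1000000) in every CD122- library and reached at least 146 CPM in every CD122+ library. Tbx21 was at 13.4 CPM or less in every T-bet- library and at 12.4 CPM or more in every T-bet int and T-bet high library, and the highest T-bet- library and the lowest T-bet int library overlapped. Myc was at 99.0 CPM in TBGR C-mycfl/fl CD122+T-bet- cells and at 25.1 CPM in the TBGR C-mycD/DCd4 mouse, but single libraries overlapped, with 10.6 to 135 CPM against 9.96 and 44.5 CPM. The sources used here do not say whether the counted 3' tags of Myc lie in the deleted part. Gm10800, which the study counts among markers of low-quality cells, took 7.81% to 42.8% of the transcripts of a group. The CD122+T-bet- cells of TBGR C-mycfl/fl replicate 4 stood apart, with 22 cells and 49.1% Gm10800, as did TBGR replicate 6 (T-bet high), with 55 cells and 14.1%. Each barcode of a well with a cell occurred in 10 libraries, since libraries shared barcode sets, and no well repeated the values of another well.

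Sequences upstream of transcription starts are shown first. They are those of Nfkbia, Tnfaip3, Nfkb2, Rel and Nfkbid, known or candidate targets of the factors that the other members encode. Only genes with a match to the NF-kB consensus are printed, so the windows of Rela, Traf1 and Birc3 are not. RefSeq promoter windows, from 250 bases before to 50 bases after a transcription start in GRCm38.p6, were at hand for 8 of the 10 genes. Nfkb1 and Relb are named without a window. Both strands were searched for the degenerate NF-kB consensus and for its stricter form GGGANNTTCC, every match of which also meets the consensus. In the windows below, written 5' to 3' on the strand of the gene, capitals mark the consensus. The Nfkbia window, which ends at the base before the start, is chr12:55492648-55492797 (minus strand, intergenic in the annotation), the Tnfaip3 window lies at chr10:19015411-19015547 (minus strand) and the Nfkbid window at chr7:30422156-30422405 (plus strand), both inside the gene but outside its exons. The Rel window is chr11:23770971-23771119 (minus strand, intergenic), and the Nfkb2 stretch of 30 bases, chr19:46304687-46304716 (plus strand), lies in the UTR of another Nfkb2 transcript and in an exon of an overlapping annotated gene.
Nfkbia: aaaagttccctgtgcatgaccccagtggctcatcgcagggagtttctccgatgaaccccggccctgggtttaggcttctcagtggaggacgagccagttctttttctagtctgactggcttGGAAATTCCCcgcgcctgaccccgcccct
Tnfaip3: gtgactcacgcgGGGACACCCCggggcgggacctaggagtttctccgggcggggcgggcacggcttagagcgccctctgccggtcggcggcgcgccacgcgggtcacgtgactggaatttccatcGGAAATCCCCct
Nfkbid: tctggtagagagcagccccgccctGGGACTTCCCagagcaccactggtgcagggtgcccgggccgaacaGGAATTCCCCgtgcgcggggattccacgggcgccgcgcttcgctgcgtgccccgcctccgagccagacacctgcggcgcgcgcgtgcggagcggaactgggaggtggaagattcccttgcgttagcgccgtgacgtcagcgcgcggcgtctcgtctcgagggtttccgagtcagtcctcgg
Rel: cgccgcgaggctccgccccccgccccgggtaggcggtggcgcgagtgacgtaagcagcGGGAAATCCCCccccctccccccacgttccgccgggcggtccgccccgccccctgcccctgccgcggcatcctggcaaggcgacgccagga
Nfkb2: gggatcgtcacGGGAATTCCCCccctcggg
The Nfkbia match, GGAAATTCCC, began 29 bases before the start and also met the stricter form. Tnfaip3 had matches beginning 125 and 12 bases before the start, and Nfkbid had them 226 and 181 bases before 1 of its 3 annotated starts. In Rel, overlapping matches at 92 and 91 bases formed the single run in capitals, and in Nfkb2 the same held at 39 and 38 bases, with a further match at 11 bases that is not printed. The consensus was found for 5 of the 8 genes, against 2581 of 27025 genes (9.55%) overall in the promoter set. By window it was in 7 of their 13, against 2779 of 32851 windows (8.46%) over all genes. Among the 7 are overlapping Nfkb2 windows that hold the same site, GGGACTTTCC. The stricter form was found for Nfkbia and, in windows of other starts that are not printed, for Nfkb2. These are 2 of the 8 genes, against 441 genes (1.63%) and 482 windows (1.47%) over all genes. No match lay in the windows of Rela, Traf1 and Birc3, which says only that these letters are absent from those windows. A match describes letters and is not evidence of binding, which was not measured here.

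Nfkbia was the most abundant of the 10 genes, with 3134 transcripts or 346 CPM over all cells (CPM, transcripts per 1000000 transcripts without mitochondrial and spike-in sequences, needs no length correction here since 1 tag stands for 1 molecule). It ranked 286 among all genes by transcripts. Nfkb1 followed with 182 CPM, then Tnfaip3 with 150 CPM. The remaining 7 genes were below 50 CPM: Nfkbid 47.0 CPM, Nfkb2 46.2 CPM, Rela 40.0 CPM, Rel 34.4 CPM, Birc3 32.6 CPM, Traf1 15.1 CPM and Relb 13.4 CPM. Relb had 121 transcripts in all 1413 cells and Traf1 little more, so their group values rest on few molecules. Intervals below are exact 95% Poisson intervals of a level, or exact intervals of a ratio of counts, and cover counting error only.

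**Figure D1:**
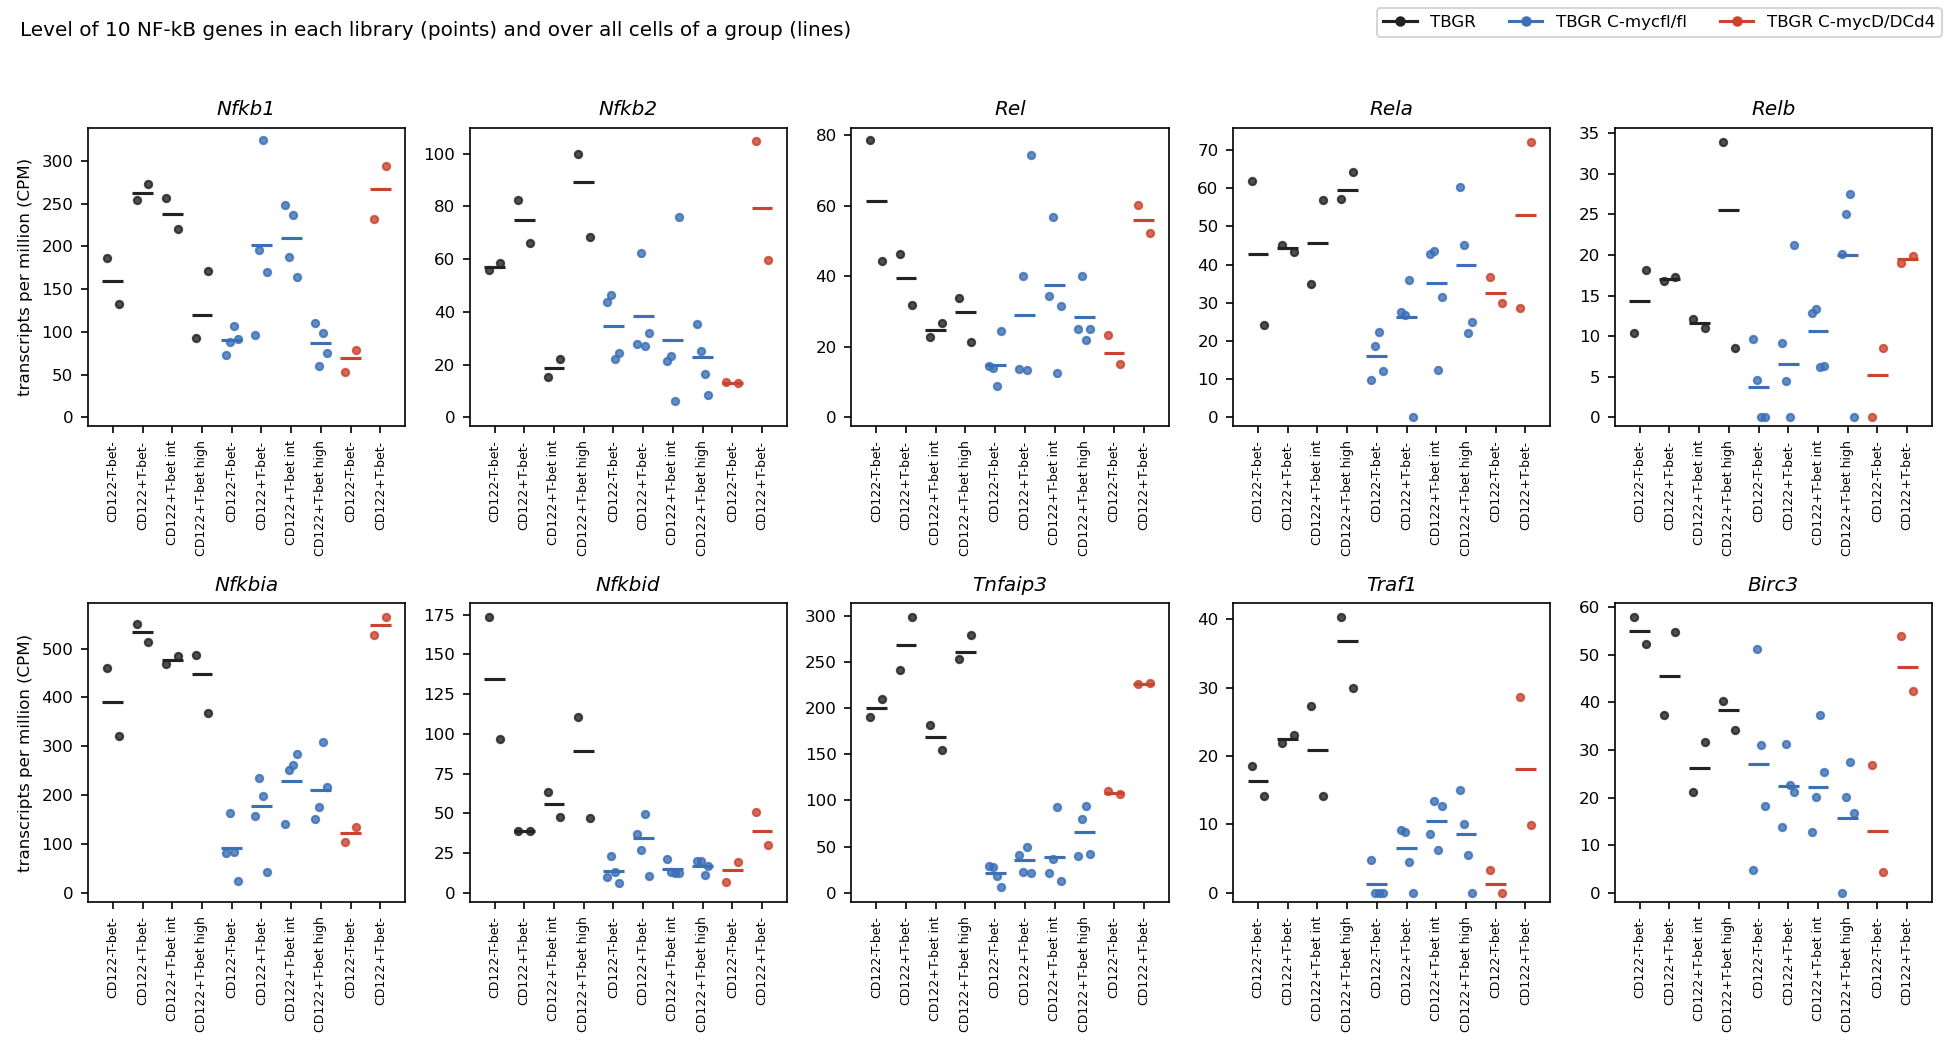
Levels of the 10 NF-kB genes in CPM (linear y axis, own scale for each gene), by sorted population and mouse; points are libraries and lines the value over all cells of a group. The 4 libraries of each TBGR C-mycfl/fl population lie between 6.10 and 93.5 CPM for Tnfaip3, below every TBGR library and below the CD122- and CD122+T-bet- libraries of the TBGR C-mycD/DCd4 mouse.

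Among the genes of the canonical branch, Nfkb1, at chr3:135584655-135691547 in GRCm38, was high in CD122+T-bet- and T-bet int cells and lower in CD122- cells and, in the mice that had them, T-bet high cells. TBGR libraries gave 186 and 133 CPM in CD122- cells, 254 and 272 CPM in CD122+T-bet- cells, 256 and 220 CPM in T-bet int cells, and 93.3 and 171 CPM in T-bet high cells. Libraries of the TBGR C-mycfl/fl mouse gave 72.7, 88.4, 107 and 91.5 CPM in CD122- cells, and 96.8, 196, 325 and 170 CPM in CD122+T-bet- cells. The same mouse gave 249, 187, 236 and 165 CPM in T-bet int and 111, 60.1, 99.0 and 75.1 CPM in T-bet high cells, so that every T-bet high library was below every T-bet int library. In the TBGR C-mycD/DCd4 mouse Nfkb1 stood at 53.5 and 79.3 CPM in CD122- and at 232 and 294 CPM in CD122+ cells, without overlap. Across the 10 groups the levels ran from 69.2 to 267 CPM, a ratio of 3.85, and no neighbors in this order were separated by their libraries.

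Rela, which encodes the main transactivating partner of p50 (chr19:5637483-5648130), had 16.0 to 59.6 CPM over the groups, a ratio of 3.71. Its highest group was TBGR T-bet high, with libraries at 57.3 and 64.3 CPM, and its lowest was CD122- of TBGR C-mycfl/fl, with 9.70, 18.6, 22.2 and 12.2 CPM. None of its 9 pairs of neighboring groups was separated. Rel, which encodes c-Rel, a factor known for its role in antigen-activated lymphocytes and regulatory T cells (chr11:23736847-23770970), was highest in TBGR CD122- cells, at 78.6 and 44.3 CPM, with CD122+T-bet- cells at 46.4 and 31.7 CPM. In the TBGR C-mycD/DCd4 mouse the order was the other way round, at 23.4 and 15.0 CPM in CD122- and 60.3 and 52.3 CPM in CD122+ cells. A single cell held 11 of the 60 Rel transcripts of the CD122- TBGR cells (18.3%).

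In the non-canonical branch, Nfkb2 (chr19:46304320-46312385) dipped in the T-bet int cells of the TBGR mouse. Its libraries gave 55.8 and 58.4 CPM in CD122- cells, 82.6 and 66.3 CPM in CD122+T-bet- cells, 15.2 and 22.1 CPM in T-bet int cells, and 99.7 and 68.5 CPM in T-bet high cells. Both T-bet int libraries were thus below all other TBGR libraries. All TBGR C-mycfl/fl groups lay between 22.9 and 38.3 CPM, and their libraries overlapped, with 21.4, 23.4, 6.22 and 75.9 CPM in T-bet int cells. In the TBGR C-mycD/DCd4 mouse Nfkb2 was at 13.4 and 12.9 CPM in CD122- and at 105 and 59.7 CPM in CD122+ cells. Relb, the gene of the partner of p52 (chr7:19606217-19629438), reached 25.5 CPM [15.1, 40.4] in TBGR T-bet high cells, from 33.9 CPM in replicate 5 and 8.57 CPM in replicate 6. It was at the floor of 3 counts in TBGR C-mycfl/fl CD122- cells, with 3 transcripts.

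Among the inhibitors and feedback genes, Nfkbia, which encodes IkB-alpha (chr12:55489410-55492647), was above 300 CPM in every TBGR library. These libraries gave 461 and 320 CPM in CD122-, 551 and 513 CPM in CD122+T-bet-, 468 and 484 CPM in T-bet int and 486 and 368 CPM in T-bet high cells. The TBGR C-mycfl/fl CD122- libraries gave 82.4, 163, 84.5 and 24.4 CPM and the CD122+T-bet- libraries 157, 236, 198 and 42.4 CPM. The low value in each series belonged to replicate 4, the library with the largest share of Gm10800. The T-bet int and then the T-bet high libraries of that mouse spanned 142 to 285 CPM and 151 to 308 CPM. In the TBGR C-mycD/DCd4 mouse Nfkbia was at 104 and 135 CPM in CD122- and at 527 and 565 CPM in CD122+ cells, the highest group by its pooled level, although its libraries overlapped those of TBGR CD122+T-bet- cells.

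Tnfaip3 encodes A20, an enzyme that edits ubiquitin chains on signaling proteins and ends canonical NF-kB signaling (chr10:19000910-19015657). Its levels ran from 20.99 to 268 CPM, a ratio of 12.8 and the largest among the 8 genes other than Relb and Traf1, for which no ratio was formed because a group had at most 3 transcripts. The TBGR libraries held 190 and 209 CPM in CD122-, 241 and 298 CPM in CD122+T-bet-, 182 and 155 CPM in T-bet int and 252 and 278 CPM in T-bet high cells. Values were lower in the TBGR C-mycfl/fl mouse, where the CD122- libraries gave 29.1, 27.9, 17.8 and 6.10 CPM and the CD122+T-bet- libraries 41.5, 22.3, 49.6 and 21.2 CPM. The T-bet int libraries of that mouse gave 21.4, 36.8, 93.3 and 12.7 CPM, and its T-bet high libraries 40.3, 80.2, 93.5 and 41.7 CPM. In the TBGR C-mycD/DCd4 mouse the values were 110 and 107 CPM in CD122- and 225 and 227 CPM in CD122+ cells. Of the 9 pairs of neighbors in the order of groups, 5 were separated by their libraries, more than for any other of the genes, and the 4 TBGR C-mycfl/fl groups took the lowest places.

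Nfkbid encodes IkB-NS, a nuclear IkB protein with a known part in the development of regulatory T cells (chr7:30421732-30428746). In the TBGR mouse it was at 174 and 96.7 CPM in CD122- cells, 38.7 and 38.9 CPM in CD122+T-bet- cells, 63.6 and 47.4 CPM in T-bet int cells, and 110 and 47.1 CPM in T-bet high cells. Both CD122- libraries were above both CD122+T-bet- libraries, while the T-bet high libraries overlapped those of T-bet int cells. In the other mice its groups lay between 13.6 and 39.1 CPM, from 11 to 28 transcripts each. Birc3, which encodes the ubiquitin ligase cIAP2 (chr9:7848699-7873186), was highest in TBGR CD122- cells, at 57.9 and 52.4 CPM, and its libraries in TBGR C-mycD/DCd4 CD122+T-bet- cells were at 54.0 and 42.3 CPM. Traf1, the gene of an adaptor of TNF receptor family members (chr2:34941750-34961772), was at 40.3 and 30.0 CPM in TBGR T-bet high cells, above all other TBGR libraries. Single transcripts were found in CD122- cells of both TBGR C-mycfl/fl and TBGR C-mycD/DCd4 mice, 1.23 and 1.31 CPM.

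To set groups against each other, the log2 ratio of the CPM values, with 0.5 transcripts added, was taken as a difference from that of the median gene, the median being taken over genes that had 100 transcripts or more in the groups compared. A gene with at least 50 transcripts in both groups together was called higher or lower when this relative log2 ratio was at least 1 either way and the libraries lay apart after the median was taken out. For the within-library comparisons, apart means the same direction in all 4 libraries. The medians taken out lay between -0.18 and 0.55 on the log2 scale. Fold values below are likewise relative to the median gene. A gene can reach the minimum of 50 through the group in which it is high, so being tested is not independent of the difference. A call is a description of these libraries and not a test.

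**Figure D2:**
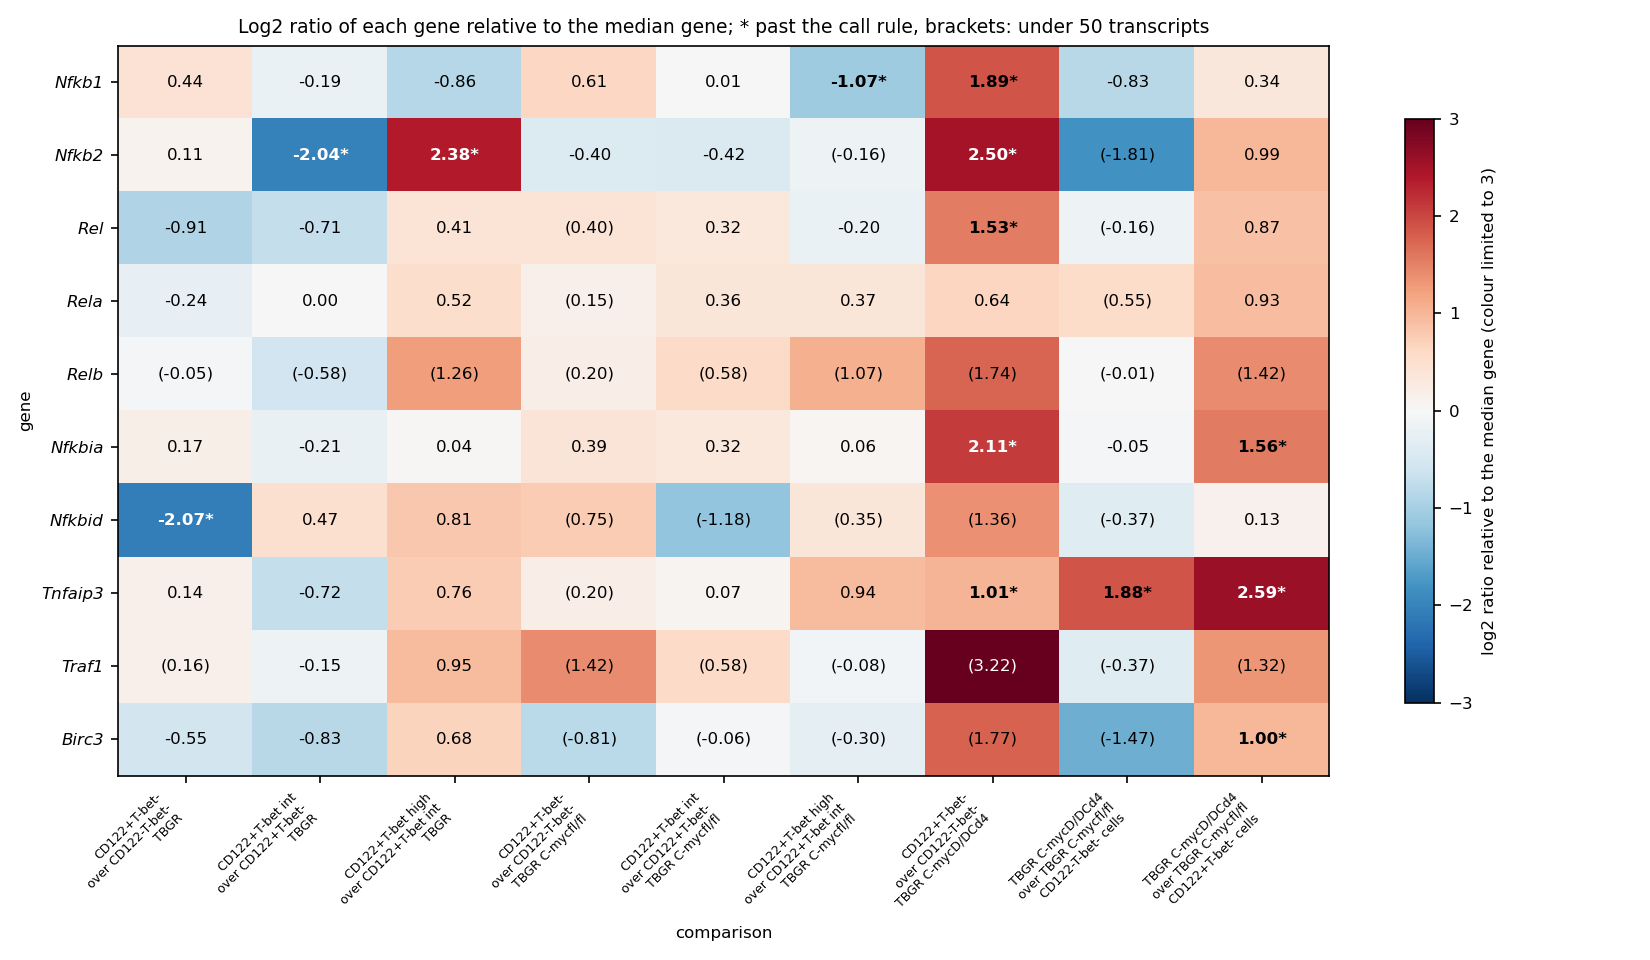
Relative log2 ratio of each of the 10 genes (rows) in each of the 9 comparisons (columns); an asterisk marks a gene past the call rule, brackets mark genes under 50 transcripts, and the color scale ends at 3. The column of CD122+T-bet- over CD122- cells of the TBGR C-mycD/DCd4 mouse holds 5 calls and no negative value.

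In the TBGR mouse, between CD122- and CD122+T-bet- cells, the step at which CD122 appears, Nfkbid alone was called among the 8 members with enough transcripts. It was 4.19 times lower, with a relative log2 ratio of -2.07 [-2.55, -1.61] from 132 and 57 transcripts. Over all genes tested, 12.3% were called. Rel was at -0.91 [-1.46, -0.37] and Birc3 at -0.55 [-1.09, -0.01], both with libraries apart but short of the rule. Libraries were apart for 4 of the 8 tested members and for 49.3% of all genes tested. Nfkb1 was at 0.44 [0.17, 0.72], while Nfkbia at 0.17 and Tnfaip3 at 0.14 had overlapping libraries. Of the 10 genes 5 lay above the median gene, and their own median was 0.03. In the TBGR C-mycfl/fl mouse 3 members could be tested at this step and none was called, against 9.12% of all genes. There Nfkbid, with 26 and 11 transcripts, was at 0.75 [-0.28, 1.96], and Nfkb1 was at 0.61 [0.21, 1.04]. The CPM of Nfkb1 was higher in CD122+T-bet- cells in each of the 4 libraries, and in replicate 1 the ratio was -0.15 once the median was taken out. The double positive marker list, 8 genes including Cd4, Cd8a and Rag1, moved along with Nfkbid in the TBGR mouse: its summed level was 671 to 790 CPM in CD122- libraries, with all 8 genes present, and 115 to 159 CPM in CD122+T-bet- libraries, with Rag1 and Rag2 at 0. The list was also lower over this step in the other mice, at 338 and 43.6 CPM in TBGR C-mycfl/fl and at 705 and 135 CPM in TBGR C-mycD/DCd4, where Nfkbid had ratios of 0.75 and 1.36. The NKT cell markers went from 92.6 and 116 CPM to 373 and 417 CPM in the TBGR mouse. The part of these lists in the Nfkbid value was not tested.

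From CD122+T-bet- to T-bet int cells, 9 of the 10 genes lay below the median gene in the TBGR mouse, and Nfkb2 was called among 9 tested. It was 4.10 times lower, with a relative log2 ratio of -2.04 [-2.76, -1.41] from 110 and 24 transcripts, where 7.05% of all genes were called. Birc3 at -0.83 [-1.48, -0.23], Tnfaip3 at -0.72 [-0.96, -0.47] and Rel at -0.71 [-1.39, -0.07] were also lower with libraries apart, within the rule's limit of 1. Libraries were apart for 7 of the 9 tested members and for 50.2% of all genes tested. Nfkbid went the other way at 0.47 [-0.05, 1.0]. The summed level of 5 regulatory T cell markers fell along with these genes, from 83.8 and 245 CPM in the CD122+T-bet- libraries to 61.7 and 69.7 CPM, and that of 7 measured dissociation stress genes, Fos and Jun among them, from 1096 and 1249.8 CPM to 765 and 788 CPM; their part was not tested. Leaving out the cells with a Foxp3 transcript left the Nfkb2 call in place. Leaving out cells with B cell or myeloid transcripts, or thinning each cell, ended the call, with 4 and 3 members left to be tested, while the ratio of Nfkb2 stayed between -2.30 and -1.78 under all 19 alternatives. In the TBGR C-mycfl/fl mouse none of 6 tested members was called, against 0.64% of all genes, and Nfkb2 was at -0.42 [-1.26, 0.40].

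In the TBGR mouse Nfkb2 was higher again from T-bet int to T-bet high cells, by 5.20 times, at a relative log2 ratio of 2.38 [1.70, 3.14] from 24 and 63 transcripts. It was the single call among 9 tested members, against 16.5% of all genes. Without replicate 5 Nfkb2 had 16 and 24 transcripts, too few to be tested, so the call ended there. It also ended when cells were thinned or cells with B cell or myeloid transcripts left out, with 3 and 4 members left to be tested. The ratio of Nfkb2 stayed between 1.87 and 2.60 under all 19 alternatives. Here 9 of the 10 genes lay above the median gene, with a median of 0.72 over the 10. Nfkb1 was the exception at -0.86 [-1.24, -0.52], with libraries apart. Traf1 was at 0.95 [0.12, 1.78], Nfkbid at 0.81 [0.30, 1.32] and Tnfaip3 at 0.76 [0.47, 1.05], beside 0.76 [0.58, 0.93] for Cd3e, a T cell gene that is no member. Without replicate 6, the library that stood apart, Nfkb1 at -1.26 and Nfkbid at 1.07 were called as well and Nfkb2 was at 2.49. In the TBGR C-mycfl/fl mouse Nfkb1 was the call among 5 tested, 2.10 times lower at -1.07 [-1.52, -0.65] and lower in all 4 libraries, where 4.82% of all genes were called. Tnfaip3 was at 0.94 [0.27, 1.63] there and higher relative to the median in all 4 libraries, and Nfkb2, with 16 and 25 transcripts, was at -0.16 [-1.18, 0.78]. Nfkb1 thus had a negative ratio with libraries apart in both mice, which are separate libraries but 1 mouse each. Of all genes tested, 54.5% had libraries apart at this step in the TBGR and 24.8% in the TBGR C-mycfl/fl mouse.

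The most calls fell in the TBGR C-mycD/DCd4 mouse, between CD122+T-bet- and CD122- cells. There 5 of 6 tested members were called, all higher, where 18.9% of all genes were called. Nfkb2 and Rel, with 10 and 14 transcripts in CD122- and 57 and 40 in CD122+ cells, reached the minimum mainly through CD122+ cells. Their place among the tested members thus depended on the difference itself. Nfkb2 was 5.67 times higher, at 2.50 [1.58, 3.70] from 57 and 10 transcripts, and Nfkbia was 4.31 times higher, at 2.11 [1.79, 2.45] from 393 and 94. Nfkb1 was at 1.89 [1.45, 2.37], Rel at 1.53 [0.66, 2.56] and Tnfaip3 at 1.01 [0.62, 1.41]. Rela, at 0.64 [-0.11, 1.44] with overlapping libraries, was the tested member without a call. The 4 members under 50 transcripts were Traf1 at 3.22 [1.02, 9.16] from 13 and 1 transcripts, Birc3 at 1.77 [0.77, 3.0], Relb at 1.74 [0.19, 3.92] and Nfkbid at 1.36 [0.35, 2.55]. All 10 genes lay above the median gene, with a median of 1.75 over the 10, beside 0.05 for all genes tested. The median over the 10 includes the 4 members under 50 transcripts, whereas the other is over tested genes only. The ratio of Nfkbia over this step was 0.17 in the TBGR and 0.39 in the TBGR C-mycfl/fl mouse, and the differences between mice were not tested.

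Several other measures differed over this step in the TBGR C-mycD/DCd4 mouse. The 8 double positive markers summed to 611 and 853 CPM in the CD122- and to 132 and 139.7 CPM in the CD122+ libraries, with Rag2 at 0 in the latter. The 5 NKT cell markers, Zbtb16 and Klrb1c among them, summed to 124 and 164 CPM against 432 and 518 CPM, with Klrb1c and Il4 at 0 in CD122- cells. By CD1d tetramer staining, the study reported NKT cells severely reduced in the thymus of such mice and nearly none among their sorted IELPs. The dissociation stress genes summed to 304 and 412 CPM in the CD122- libraries and to 861 and 1160.0 CPM in the CD122+ libraries, the regulatory T cell markers to 30.1 and 107 CPM against 178 and 222 CPM, and Cd3e had a relative log2 ratio of 0.85 [0.64, 1.07]. The 6 B cell markers summed to 122 and 154 CPM against 111 and 508 CPM, with Cd79a at 0 in CD122- cells and present in CD122+ cells. Their part in the values of the 10 genes was not tested in full. Leaving out the 538 cells over all groups with at least 2 transcripts of B cell or myeloid markers left 2 calls, Nfkb1 and Nfkbia, of 3 members still tested, and leaving out 73 cells with a Foxp3 transcript left 3, with Nfkb2 beside them. Leaving out any single library of this mouse put Rel under the transcript minimum, and leaving out replicate 1 or 2 did so for Nfkb2. Their calls ended there because the genes could no longer be tested, which does not show that the calls depended on a library. Tnfaip3 was still tested without replicate 4 and lost its call, and Rela was called without replicate 1. The ratio of Nfkb2 stayed between 2.12 and 3.12 under all 19 alternatives. Nfkb1 and Nfkbia were called under all 19 alternatives, with ratios of 1.56 to 2.16 and 1.54 to 2.61, whereas Rel was called under 10 of them and Tnfaip3 under 14, where its ratio went from 0.30 to 1.63.

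The comparison of TBGR C-mycD/DCd4 with TBGR C-mycfl/fl cells set the mouse with C-myc deleted against the floxed mouse. Deletion, mouse and library cannot be told apart in it. In CD122- cells Tnfaip3 was 3.69 times higher, at 1.88 [1.15, 2.76] from 83 and 17 transcripts, the single call among 3 tested members where 4.98% of all genes were called. Nfkb1 was at -0.83 [-1.37, -0.30], while Nfkbia at -0.05 [-0.50, 0.41] had overlapping libraries. Nfkb2 was at -1.81 [-3.06, -0.77] from 10 and 28 transcripts, too few to be tested. The Tnfaip3 ratio stayed between 1.70 and 2.34 under all 21 alternatives. Other measures were apart between these libraries too: the double positive markers summed to 251.2 to 445 CPM in TBGR C-mycfl/fl and to 611 and 853 CPM in TBGR C-mycD/DCd4, the dissociation stress genes to 159 to 296 CPM against 304 and 412 CPM, and the B cell markers to 38.8 to 80.1 CPM against 122 and 154 CPM with Cd79a at 0 in both. Gm10800 took 42.8% against 31.0% of transcripts. Their part in the Tnfaip3 value was not tested. Of the 10 genes 8 lay below the median gene, and the other two were Tnfaip3 and Rela, the latter at 0.55 [-0.45, 1.66].

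In CD122+T-bet- cells the same comparison called 3 of 8 tested members, all higher, where 19.7% of all genes were called. Tnfaip3 was 6.01 times higher in the TBGR C-mycD/DCd4 mouse, at 2.59 [2.01, 3.25] from 162 and 27 transcripts, and Nfkbia 2.95 times higher, at 1.56 [1.28, 1.86] from 393 and 135. Birc3 was at 1.001 [0.14, 1.96] from 34 and 17 transcripts and was called under 7 of 21 alternatives only. With these counts it fell under the transcript minimum whenever a library was left out. Nfkbia and Tnfaip3 were called under all 21, with ranges of 1.44 to 1.89 and 2.32 to 3.12. Without TBGR C-mycfl/fl replicate 4, the library with the most Gm10800, they were at 1.49 and 2.58. All 10 genes lay above the median gene, with a median of 1.0 over the 10: Nfkb2 at 0.99, Rela at 0.93, Rel at 0.87 and Nfkb1 at 0.34 had overlapping libraries. Cd3e was at 1.24 [1.0, 1.48], also called, and the dissociation stress genes summed to 159 to 586 CPM in the TBGR C-mycfl/fl libraries and to 861 and 1160.0 CPM in the TBGR C-mycD/DCd4 libraries. Other lists were also higher in the TBGR C-mycD/DCd4 libraries without overlap. The double positive markers were at 132 and 139.7 CPM against 10.6 to 59.9 CPM, and the 5 measured gamma delta T cell markers at 724 and 754 CPM against 131 to 576 CPM. The regulatory T cell markers were at 178 and 222 CPM against 23.0 to 149 CPM, and the NKT cell markers at 432 and 518 CPM against 233 to 365 CPM. Tetramer staining in the study found nearly no NKT cells among sorted IELPs of such mice. The share of ribosomal protein genes was 9.46% of transcripts in TBGR C-mycfl/fl against 4.37%. The part of these in the result was not tested. Both this comparison and the step between CD122- and CD122+ cells within that mouse rest on the same 2 TBGR C-mycD/DCd4 libraries of CD122+T-bet- cells.

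Set side by side without a comparison, since age and mouse differ, Nfkbia in CD122+T-bet- cells was at 533 CPM in the TBGR mouse, 178 CPM in TBGR C-mycfl/fl and 548 CPM in TBGR C-mycD/DCd4. Tnfaip3 was at 268, 35.6 and 226 CPM in the same order. These totals include 16 low-quality genes, Gm10800 among them, with 15.3%, 31.4% and 33.3% of transcripts. Without them Nfkbia was at 629, 260 and 822 CPM and Tnfaip3 at 317, 52.0 and 339 CPM. In CD122- cells Tnfaip3 was at 200, 20.99 and 108 CPM, and Nfkbia at 390, 92.6 and 123 CPM. Without the low-quality genes Tnfaip3 was there at 288, 42.6 and 172 CPM, and Nfkbia at 561, 188 and 194 CPM. Again in the order TBGR, TBGR C-mycfl/fl and TBGR C-mycD/DCd4, the dissociation stress genes summed in CD122+T-bet- cells to 1169, 478 and 1028 CPM, and in CD122- cells to 899, 248 and 370 CPM.

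The share of cells with a transcript was compared after each cell had been thinned at random to 2000 transcripts, with exact binomial 95% intervals. Nfkbia was then found in 41.4% [34.0, 49.1] of CD122- and 58.1% [50.6, 65.2] of CD122+T-bet- TBGR cells, and before thinning in 67.2% and 88.2%. For the TBGR C-mycfl/fl mouse the thinned shares were 16.7% [10.5, 24.6] and 29.5% [21.6, 38.4], and in the TBGR C-mycD/DCd4 mouse 21.1% [14.4, 29.2] and 59.9% [51.1, 68.1]. Tnfaip3 was found in 5.74% to 8.62% of the cells of the 4 TBGR C-mycfl/fl groups and in 18.8% [12.4, 26.6] and 32.8% [25.1, 41.4] of the CD122- and CD122+ cells of the TBGR C-mycD/DCd4 mouse. For Nfkb2 the TBGR shares were 16.1% [11.2, 22.2] in CD122+T-bet-, 4.68% [2.04, 9.01] in T-bet int and 15.0% [9.62, 21.8] in T-bet high cells. Nfkbid was found in 19.5% [13.9, 26.2] of CD122- and 5.91% [2.99, 10.3] of CD122+T-bet- TBGR cells. A second random thinning gave 9.68% for the latter. Traf1 was the least even: 6 of its 13 transcripts in TBGR C-mycD/DCd4 CD122+T-bet- cells (46.2%) came from 1 cell. Relb was found in 3.28% of the TBGR C-mycfl/fl CD122+T-bet- cells before thinning, which is 4 of 122 cells. Thinning kept 16 low-quality genes, Gm10800 among them, with 50.7% of transcripts in TBGR C-mycfl/fl CD122- and 9.24% in TBGR T-bet int cells. Thinned to 1000 without them, Nfkb1 was found in 17.5% of TBGR and 16.4% of TBGR C-mycfl/fl CD122- cells, against 25.9% and 13.3% at 2000. Nfkbia was at 37.4% and 16.4% without them.

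**Figure D3:**
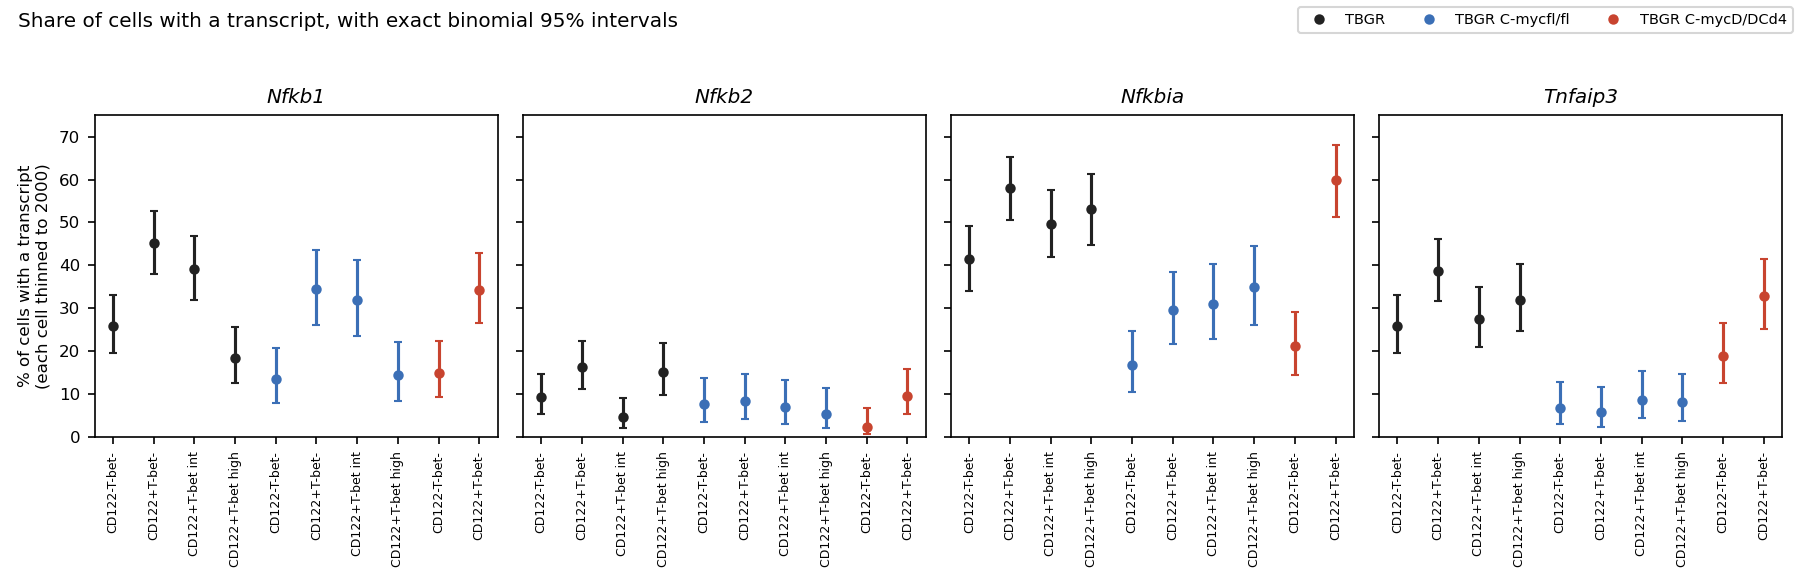
Percent of cells with at least 1 transcript of Nfkb1, Nfkb2, Nfkbia or Tnfaip3 after thinning to 2000 transcripts per cell, by sorted population and mouse; bars are exact binomial 95% intervals over cells of 1 mouse. For Tnfaip3 the TBGR C-mycfl/fl groups sit at 5.74% to 8.62%, below all others.

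Counted per cell, none of the 10 genes was found after thinning in 24.1%, 9.14%, 17.5% and 17.0% of the TBGR cells, from CD122- to T-bet high. The same was true of 53.3%, 37.7%, 32.8% and 37.5% of the TBGR C-mycfl/fl cells, and of 51.6% and 16.1% of the CD122- and CD122+ TBGR C-mycD/DCd4 cells. At least 3 of the 10 genes were found in 21.8% to 25.3% of the cells of the TBGR groups, in 2.50% to 8.62% of the TBGR C-mycfl/fl groups, and in 5.47% and 27.0% of the TBGR C-mycD/DCd4 groups. The CD122+ cells of the latter mouse were therefore within the range of TBGR cells in this measure or just above it. Low-quality genes were kept in this count too, so the depth left for other genes differed between groups.

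**Figure D4:**
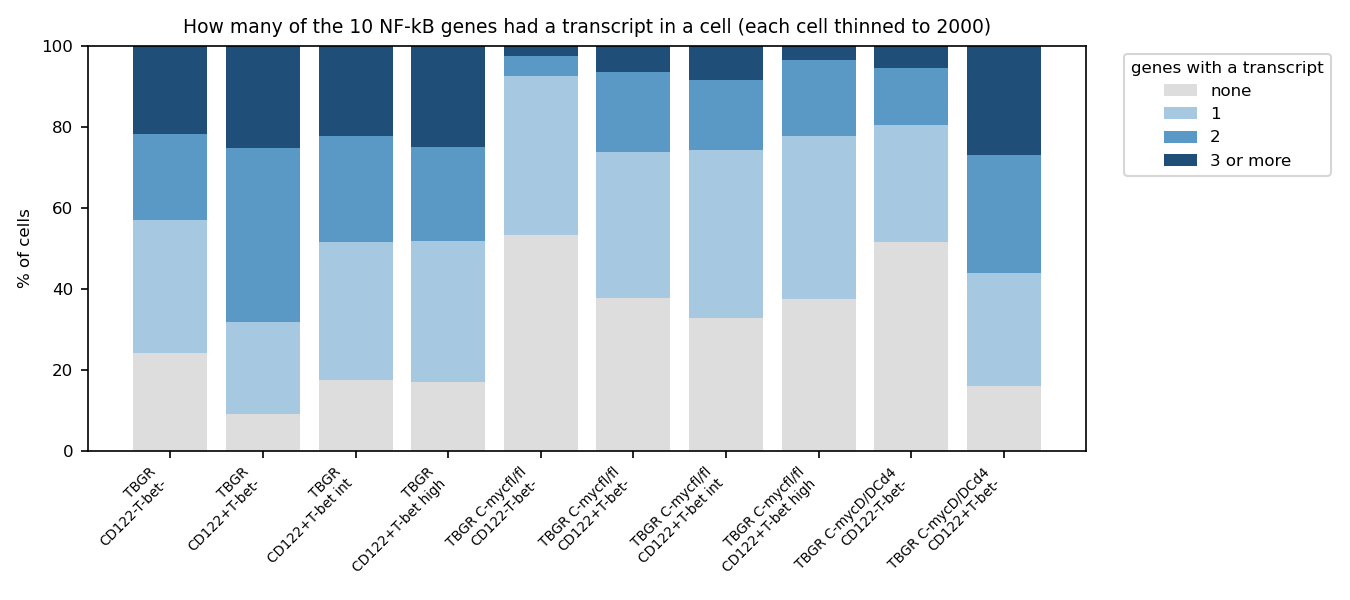
Percent of cells in which none, 1, 2 or at least 3 of the 10 genes had a transcript after thinning to 2000 transcripts per cell; each bar is a group of genotype and sorted population and adds up to 100%. The bar of CD122+T-bet- TBGR C-mycD/DCd4 cells has 16.1% of cells with none, and that of their CD122- cells 51.6%.

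Across the 10 groups, the levels of Nfkbia and Traf1 (r = 0.94) and of Rela and Relb (r = 0.89) were the most alike among the 45 pairs, and those of Nfkb1 and Relb (r = 0.32) the least. These are Pearson correlations of log2(CPM + 5) over 10 groups that share libraries, depth and mice, and they are given as a description. Among 4435 genes with at least 300 transcripts, those most like Tnfaip3 were Kmt2e (r = 0.996), Zmynd8 (r = 0.98) and Pnrc1 (r = 0.98). For Nfkbia they were Lrrfip1 (r = 0.97), Sigirr (r = 0.96) and Taok2 (r = 0.96), for Nfkb1 Ndufaf7 (r = 0.96), Ephx1 (r = 0.95) and Ddit4 (r = 0.95), and for Nfkb2 Arhgap17 (r = 0.93), Pou2f1 (r = 0.91) and Clk2 (r = 0.86). Nfkbid was most like Zrsr2 (r = 0.94), Orai1 (r = 0.93) and Tnrc6c (r = 0.92), and Rel most like Limd2 (r = 0.93), 1110008P14Rik (r = 0.88) and Parp3 (r = 0.87). For Rela they were Trim26 (r = 0.98), Tgfbr2 (r = 0.96) and Gimap9 (r = 0.96), for Relb D17Wsu92e (r = 0.95), Gramd1a (r = 0.94) and Tbc1d10c (r = 0.94), for Traf1 Rgs19 (r = 0.99), Zdhhc18 (r = 0.97) and Fam32a (r = 0.97), and for Birc3 Ikbke (r = 0.90), Tmcc1 (r = 0.89) and Rbms2 (r = 0.88). No member was among these 30 genes, and Relb, Traf1 and Birc3 could not be, having under 300 transcripts.

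Upstream of the factors, 12 genes that carry the T cell receptor signal to the IkB kinase were followed. In the TBGR mouse Prkcq, which encodes the kinase PKC-theta, was called lower from CD122- to CD122+T-bet- cells, at -1.10 [-1.37, -0.83]. Of all genes 12.3% were called there. None of the 11 tested was called from there to T-bet int cells, against 7.05% of all genes. From T-bet int to T-bet high cells Malt1, which encodes a protease of this route, was higher at 1.25 [0.70, 1.81]. It was the 1 call among 11 tested, against 16.5% of all genes. In the TBGR C-mycfl/fl mouse Ikbkb, which encodes a catalytic subunit of the kinase, was called higher from CD122- to CD122+T-bet- cells, at 1.135 [0.35, 2.05]. This was 1 of 6 tested, against 9.12% of all genes. Of the 7 genes tested in the TBGR C-mycD/DCd4 mouse none was called, against 18.9% of all genes and beside the 5 calls among the NF-kB genes.

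A list of 10 TNF receptor family genes stood for receptors that activate one or both branches. In the TBGR C-mycD/DCd4 mouse 3 of its 4 tested genes were called higher in CD122+ cells, where 18.9% of all genes were called. Tnfrsf9, which encodes 4-1BB, was at 407 against 18.3 CPM, a relative log2 ratio of 4.38 [3.66, 5.32]. Tnfrsf1b, which encodes TNFR2, was at 5.44 [3.86, 8.82] from 104 and 2 transcripts, and Tnfrsf18, which encodes GITR, at 3.27 [2.35, 4.52]. The 4 tested genes of the list had a median of 3.83 there. The median of 1.75 for the 10 NF-kB genes also includes members under the transcript minimum. The called receptor genes reached that minimum mainly through CD122+ cells, Tnfrsf9 with 292 and 14 transcripts and Tnfrsf18 with 88 and 9. A high list median thus follows in part from which genes were tested, so these medians cannot be set against each other. Against TBGR C-mycfl/fl in CD122+T-bet- cells, the same 3 of 4 tested genes were called higher, where 19.7% of all genes were called. Tnfrsf9 was at 2.74 [2.29, 3.25], Tnfrsf18 at 1.88 [1.23, 2.61] and Tnfrsf1b at 1.36 [0.83, 1.93]. In the TBGR mouse 2 genes of the list were called higher, Tnfrsf1b at 1.23 [0.78, 1.73] and Tnfrsf9, and 2 lower, Tnfrsf4 at -1.91 [-2.78, -1.13] and Tnfrsf1a at -1.88 [-2.64, -1.17], from CD122- to CD122+T-bet- cells. The list had 6 tested genes at this step, where 12.3% of all genes were called. Along with Nfkb2, 3 of 6 were called lower from CD122+T-bet- to T-bet int cells, where 7.05% of all genes were called. They were Tnfrsf9 at -1.97 [-2.44, -1.54], Tnfrsf1b at -1.21 [-1.61, -0.84] and Tnfrsf25 at -1.09 [-2.05, -0.23]. From T-bet int to T-bet high cells 2 of 5 were called higher, Tnfrsf1a at 1.41 [0.74, 2.12] and Tnfrsf18 at 1.05 [0.51, 1.60], where 16.5% of all genes were called. Tnfrsf4 and Tnfrsf18 also stand in the regulatory T cell list.

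Among the 9 non-canonical and ubiquitin regulators, Birc2, which encodes cIAP1, was called higher in TBGR C-mycD/DCd4 CD122+T-bet- cells against its CD122- cells, at 1.09 [0.38, 1.88], and against TBGR C-mycfl/fl, at 2.16 [1.25, 3.30]. Sharpin, a subunit of the linear ubiquitin ligase complex, was at 1.17 [0.38, 2.06] in the first of these, and Otulin, which removes linear chains, at 1.22 [0.42, 2.16] from CD122- to TBGR C-mycfl/fl CD122+T-bet- cells. In these 3 comparisons in turn, 2 of 6, 1 of 6 and 1 of 3 tested genes of the list were called, against 18.9%, 19.7% and 9.12% of all genes. No gene of this list was called in the TBGR mouse, against 12.3%, 7.05% and 16.5% of all genes over its steps. Of the 4 other IkB family genes, Nfkbiz, a nuclear IkB like Nfkbid, was lower from CD122+T-bet- to T-bet int TBGR cells, at -1.06 [-1.55, -0.60], and higher in CD122+ cells of the TBGR C-mycD/DCd4 mouse, at 1.83 [0.96, 2.89]. It was the call among 3 tested in the first, against 7.05% of all genes, and the only gene tested in the second, against 18.9%. Of the 14 other known target genes, 12 were in the tables. Tnip1, whose product works with A20, was higher in CD122+ cells of the TBGR C-mycD/DCd4 mouse against CD122- cells, at 2.12 [1.45, 2.91], and against TBGR C-mycfl/fl, at 1.08 [0.55, 1.65], where Cflar, a caspase-8 inhibitor, was at 1.32 [0.76, 1.93]. The calls were 1 of 5 tested and 2 of 4 tested, against 18.9% and 19.7% of all genes. Within the TBGR mouse Gadd45b was lower in T-bet int than in CD122+T-bet- cells, at -1.79 [-2.88, -0.90], and Irf1 higher in T-bet high than in T-bet int cells, at 1.08 [0.66, 1.49]. They were 1 of 7 and 1 of 5 tested, against 7.05% and 16.5% of all genes. No gene of the 5 lists was called in either step to T-bet int or to T-bet high of the TBGR C-mycfl/fl mouse, or between mice in CD122- cells. Of all genes 0.64%, 4.82% and 4.98% were called in these comparisons. Few list genes could be tested, between mice in CD122- cells only 0 to 4 per list.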

How the data were processed

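Reads had been demultiplexed with bcl2fastq 2.17.1.14 and aligned with BWA 0.6.2-r126, per the submitters' processing notes. The methods name the mouse ENCODE VM9 gene models as reference, without a build. The deposited tables hold the authors' estimated transcript counts per gene and cell: UMIs of 6 bases were counted and corrected for the chance that molecules share 1 of 4096 sequences. All values returned to whole UMI counts within 1e-06, and no per-sample column was left unused. The labels of each library's wells gave the sorted population.

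Cells with at least 2000 transcripts, without mitochondrial and ERCC genes, were summed by library and group (Python 3.11.15, numpy 2.4.6, scipy 1.17.1, pandas 2.3.3). Levels are CPM with exact Poisson intervals, and ratios have exact conditional binomial intervals. Sums were rounded to whole transcripts for intervals. No test between groups was run, each genotype being taken as a single mouse. The calling script was checked on counts simulated with known changes. The members and lists were chosen with earlier results of these data known. Text names all 10 members, at most 3 called genes per pathway list and comparison by size of ratio, and the 3 most alike genes of each member. Doublets were not called, since cells were sorted singly. Gene positions are from the GENCODE annotation of GRCm38, and promoter windows from RefSeq (GRCm38.p6). Alternatives changed the cell and gene minimums, the scaling, the ratio required, the genes in the totals and the cells or libraries included. Results for some genes of the marker and pathway lists are not reported here.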

Additional observations from a re-analysis of the deposited data

Results flagged for a closer look

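In 3 of 40 sets of 4 libraries, 1 library lay far from the others of its population, where chance alone would be expected to give such a gap in about 1 of 20. Only the TBGR C-mycfl/fl mouse had 4 libraries per population. The values were Nfkb2 at 62.3 CPM in 1 CD122+T-bet- library, Nfkbid at 21.4 CPM in 1 T-bet int library, and Traf1 at 4.85 CPM in 1 CD122-T-bet- library, a single transcript. Relative to the median gene, Rel was lower in CD122+T-bet- than in CD122- cells in the TBGR libraries and higher in the TBGR C-mycD/DCd4 libraries, with a difference of relative log2 ratios of -2.44. Over the same step Nfkb2 was lower in the TBGR C-mycfl/fl and higher in the TBGR C-mycD/DCd4 libraries, with a difference of -2.90. Neither difference was tested. Barcodes without a cell held 43 transcripts of the 10 genes in the TBGR, 10 in the TBGR C-mycfl/fl and 11 in the TBGR C-mycD/DCd4 libraries, or 0.0560, 0.0130 and 0.0286 per barcode, beside 7.87, 3.40 and 4.81 per cell.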

How the results depend on the processing

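With each genotype taken as 1 mouse, the intervals leave out the spread between mice. Genes under 50 transcripts, such as Relb and Traf1 in most comparisons, could not be called at this depth. Of 1520 ratios of the 10 genes under alternative settings, 1459 lay within their own counting interval, 61 did not, and 0 changed the sign of a call. Populations of the TBGR C-mycfl/fl mouse that shared libraries were set against each other within them. No paired analysis was possible because, beyond these, libraries hold single populations or come from separate mice, and the results come from no test. The settings for low-quality genes, Gm10800 and Foxp3 were chosen after seeing the data. The causes of the changes below were not tested.

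Between CD122- and CD122+T-bet- TBGR cells the 1 call became 3 at a log2 ratio of 0.5, and 2 without cells over 25% Gm10800 or without Foxp3 cells, and was 1 to 2 with single libraries left out. From there to T-bet int the 1 call became 4 at a ratio of 0.5 and 0 when cells were thinned or B cell and myeloid marker cells left out, with the ratio of Nfkb2 at -2.30 to -1.78 over all alternatives, with 1 to 2 on leaving out libraries. From T-bet int to T-bet high it became 6 at a ratio of 0.5, and 2 with cells scaled alike or without Foxp3 cells, with 1 to 3 on leaving out libraries. When cells were thinned or B cell and myeloid marker cells left out, the 1 call was Nfkb1 and no longer Nfkb2. At the ratio of 0.5, calls covered 31.3%, 26.2% and 38.2% of all genes tested over these steps in turn. The main setting had 12.3%, 7.05% and 16.5%, so calls at the lower ratio rose for all genes as well. Over the last step the share was 16.3% with cells scaled alike and 16.2% without Foxp3 cells. Calls gained were Rel without TBGR replicate 1 or 4 in the first step, Birc3 without replicate 1 or 8 in the second, and in the third Tnfaip3 without replicate 5, Nfkb1 and Nfkbid without replicate 6, Nfkbid without replicate 7 and Nfkb1 without replicate 8.

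In the TBGR C-mycfl/fl mouse the 0 calls between CD122- and CD122+T-bet- cells became 1 with no median taken out, with no gene minimum, or without cells over 25% Gm10800, and stayed 0 without any single library. Of all genes tested, 14.5%, 12.9% and 7.39% were called under these settings in turn, against 9.12% in the main setting. The 1 call from T-bet int to T-bet high became 2 with cells of 3000 transcripts, at a ratio of 0.5 or without Foxp3 cells, and 0 with cells scaled or thinned, and stayed 1 without any single library. Shares of all genes were 5.04%, 16.3% and 4.85% under the settings with 2 calls in turn, against 4.82% in the main setting. They were 5.86% with cells scaled and 5.22% with cells thinned.

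The 5 calls of the TBGR C-mycD/DCd4 mouse became 9 with no gene minimum, 3 with cells scaled, without cells over 25% Gm10800 or without Foxp3 cells, 2 when thinned or without B cell and myeloid marker cells, and 3 to 4 on leaving out libraries. On leaving out libraries only 3 to 5 members were tested, against 6 in the main setting. Of all genes tested 22.1% were called with no minimum, against 18.9% in the main setting. Under the settings with 3 calls the shares were 14.8%, 28.6% and 18.6% in turn. Under those with 2 calls they were 16.2% and 14.5%. Between the mice in CD122- cells the 1 call became 2 with a minimum of 20 transcripts, with none, or at a ratio of 0.5, and 0 when thinned or without cells over 25% Gm10800, with the ratio of Tnfaip3 at 1.70 to 2.34 over all alternatives, with 1 to 2 on leaving out libraries. Shares of all genes called under these settings are not given here, so the change in the count cannot be set against them. In CD122+T-bet- cells 2 to 3 calls were left without single libraries, Nfkbia and Tnfaip3 in each case, with Nfkb2 gained without TBGR C-mycD/DCd4 replicate 2 or TBGR C-mycfl/fl replicate 2 and Rel without TBGR C-mycfl/fl replicate 4; Nfkb1 was gained in CD122- cells without TBGR C-mycfl/fl replicate 1. Shares of cells moved beyond their interval for 82 of 100 without thinning, 4 with a second random thinning and 33 when thinned to 1000 without low-quality genes.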
